A study of Mus musculus with 16 samples.

Results

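The RNA levels of 10 Sox genes, Sox3, Sox4, Sox5, Sox6, Sox7, Sox9, Sox11, Sox12, Sox15 and Sox17, were followed in P19CL6 cells. They were chosen by name from the mouse Sox family, with Sox2 left out, and are 10 of the 18193 genes that the array names by a single symbol. Of the 45101 probe sets on the array, 38 name 1 of these genes alone. A probe set was called dim where it exceeded a log2 intensity of 4 on fewer than 2 arrays, which held for 15 of the 38. Each gene is represented by its probe set of highest mean. Sox7 and Sox17 had dim probe sets only and were not tested, so that 8 of the 10 genes were tested among 10802 genes in all.

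Sox proteins are transcription factors that bind the minor groove of DNA through an HMG box and recognise a short sequence with the core ACAAT. The family is divided into groups by the sequence of that box, and members of a group often act in the same cells. Sox3 belongs to the group of Sox2 (SoxB1), which keeps embryonic and neural progenitors undifferentiated. Sox4, Sox11 and Sox12 form SoxC, whose members act in neurons, mesenchyme and the outflow tract of the heart. Sox5 and Sox6 are SoxD factors with no activation domain of their own, and they act with the SoxE factor Sox9 in cartilage. Sox7 and Sox17 are SoxF factors of endoderm and endothelium, and Sox15 is the SoxG member of mice.

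P19CL6 is a line derived from mouse P19 embryonal carcinoma cells that turns into beating heart muscle cells when dimethyl sulfoxide (DMSO) is added. Growth cultures without DMSO were passaged every 48 h, and differentiating cultures were kept in medium with 1% DMSO that was renewed every 48 h. RNA came from 3 growth cultures, from 3 cultures each at days 4, 8 and 10 in DMSO, and from 2 each at days 6 and 12, with 1 Affymetrix array per culture and 16 arrays in all. The labels call the samples of a condition independent and name replicates A, B and C at growth and at days 4, 8 and 10, B and C at day 6 and A and C at day 12. No culture kept as long without DMSO was analysed here, so that DMSO, plating density and time in culture cannot be told apart.

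The arrays had 39.65 to 42.53% of their probe sets above a log2 value of 4. Replicate A of day 8 was unlike the rest of its group. Over the 10802 tested genes it correlated at 0.992 and 0.990 with the day 6 arrays. With the other day 8 arrays it correlated at 0.967 and 0.956. Actb is probed at both ends of its transcript as a control of RNA integrity. Its 3′ minus 5′ log2 difference was 1.33 on day 10 replicate A and 0.68 to 1.06 on the other arrays. The same difference of Gapdh was -0.27 on day 10 replicate A, within the -0.41 to -0.19 of the other arrays. The 18S rRNA control read 8.04 and 8.69 on the day 12 arrays and 4.91 to 6.88 on the others.

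The upstream sequences of 5 of the members whose RNA changed are shown here, since they are the stretches of DNA nearest to the starts of those transcripts. Each is the 250 bases before an annotated start in RefSeq (GRCm38.p6), read 5′ to 3′ on the strand of the gene, with the core ACAAT or its complement ATTGT in capitals. RefSeq promoter entries matched 6 of the members, with 11 starts in all. The windows are chr13:28953700-28953949 for Sox4, chr12:27342719-27342968 for Sox11, chr7:116038745-116038994 for the start of Sox6 farthest upstream of its 6, chr6:143947107-143947356 for Sox5 and chr11:69654787-69655036 for Sox15. The first 4 lie on the minus strand and that of Sox15 on the plus strand. The printed starts of Sox5 and Sox6 lie inside their annotated genes. Sox5 runs from base 143828425 to base 144782287 of chromosome 6, and Sox6 from base 115470872 to base 116040776 of chromosome 7.
Sox4: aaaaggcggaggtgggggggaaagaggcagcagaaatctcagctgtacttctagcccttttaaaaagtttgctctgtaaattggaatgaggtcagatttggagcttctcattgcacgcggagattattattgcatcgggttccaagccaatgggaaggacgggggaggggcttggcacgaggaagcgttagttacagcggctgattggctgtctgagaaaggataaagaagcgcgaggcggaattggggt
Sox11: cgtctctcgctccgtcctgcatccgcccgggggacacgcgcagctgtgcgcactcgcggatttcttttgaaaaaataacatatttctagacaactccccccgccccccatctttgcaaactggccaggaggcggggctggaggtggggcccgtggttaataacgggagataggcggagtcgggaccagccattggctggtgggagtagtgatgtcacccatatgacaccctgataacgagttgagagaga
Sox6: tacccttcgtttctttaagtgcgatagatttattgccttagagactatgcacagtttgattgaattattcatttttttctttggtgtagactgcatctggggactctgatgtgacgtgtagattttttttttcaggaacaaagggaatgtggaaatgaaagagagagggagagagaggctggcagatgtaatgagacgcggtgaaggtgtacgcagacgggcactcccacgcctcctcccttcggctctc
Sox5: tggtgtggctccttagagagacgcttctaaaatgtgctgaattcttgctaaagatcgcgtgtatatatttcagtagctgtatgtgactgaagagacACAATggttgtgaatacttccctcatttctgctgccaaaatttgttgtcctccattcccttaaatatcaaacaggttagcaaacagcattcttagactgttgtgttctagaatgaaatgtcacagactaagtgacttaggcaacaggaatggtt
Sox15: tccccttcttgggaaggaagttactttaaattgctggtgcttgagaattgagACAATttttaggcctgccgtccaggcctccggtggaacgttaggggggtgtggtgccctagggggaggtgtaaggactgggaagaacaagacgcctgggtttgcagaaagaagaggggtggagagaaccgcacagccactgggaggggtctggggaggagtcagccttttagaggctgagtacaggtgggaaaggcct

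Sox15 and Sox5 hold 1 core each, 198 and 154 bases before the start, and the windows of Sox4, Sox11 and this start of Sox6 hold none. The core occurs in 27.7% of all 32851 RefSeq windows of the same length, counted on both strands. Among the other 5 starts of Sox6, 3 windows hold 2, 2 and 3 cores. These matches describe the letters only. The dinucleotide CG occurs 17 times in the Sox11 window and 11 times in that of Sox4, against 9 times in that of Sox6, 5 times in that of Sox15 and 3 times in that of Sox5, and its median over all windows is 6.

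**Figure D1:**
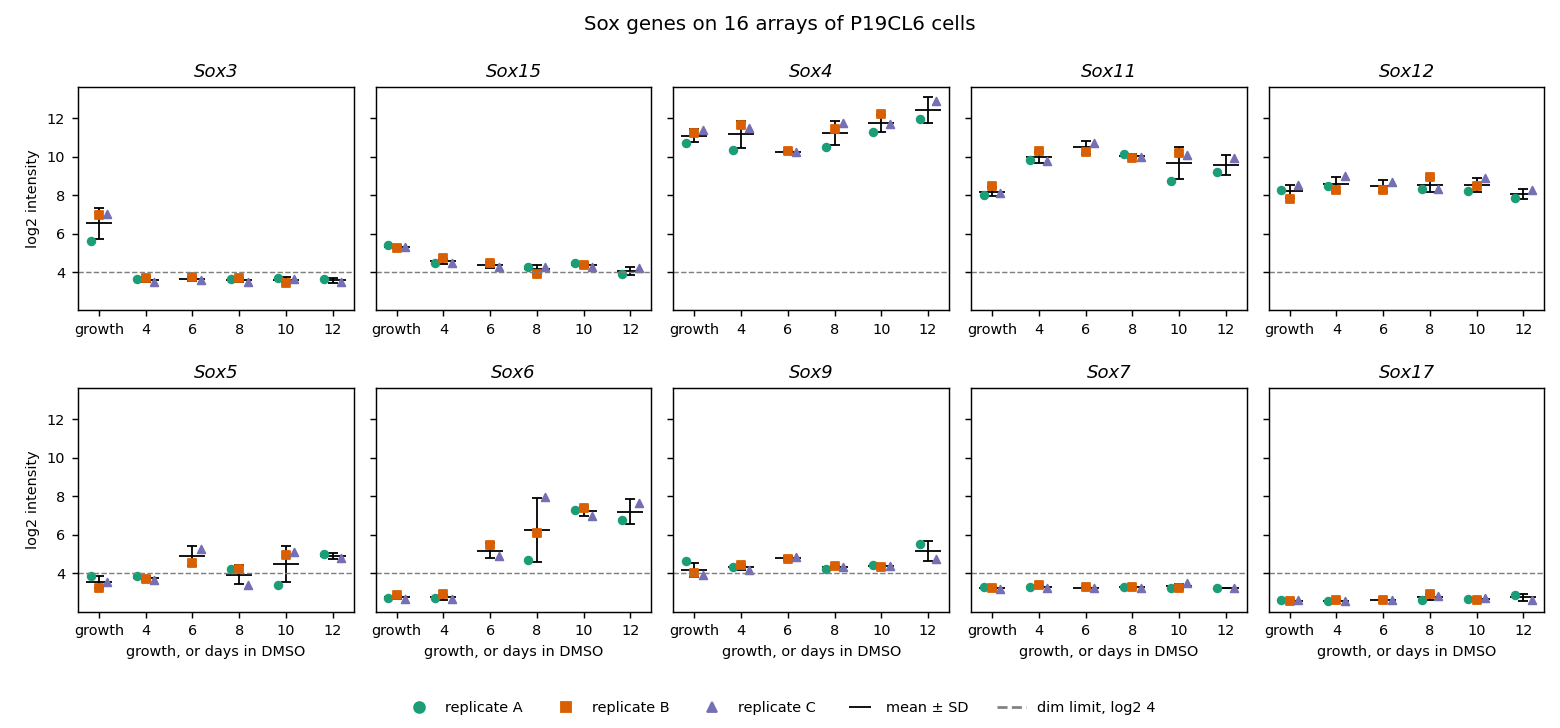
Log2 intensity of the probe set that stands for each of the 10 Sox genes, on each of 16 arrays, in growth and after 4 to 12 days in DMSO. Points are arrays by replicate letter, bars are means ± SD (n = 3, or 2 at days 6 and 12) and the dashed line is the log2 value of 4. Sox3 lies under the line on all 13 DMSO arrays, Sox11 lies above its growth arrays on all 13, and Sox6 lies above the line from day 6 on.

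A change was called where limma gave an adjusted p under 0.05 (Benjamini-Hochberg, over the 10802 genes) and the log2 difference was 1 or more. Of the 8 tested Sox genes, 2 were called at day 4 against growth, Sox11 higher and Sox3 lower, where 27% of all genes were called. At day 6 there were 4, with Sox5, Sox6 and Sox11 higher and Sox3 lower, beside 26.8% of all genes. At day 8 there were also 4, with Sox6 and Sox11 higher and Sox3 and Sox15 lower, beside 31% of all genes. The same 4 were called at day 8 without day 8 replicate A, beside 33.4% of all genes. At day 10 there were 3, with Sox6 and Sox11 higher and Sox3 lower, beside 38%. At day 12 there were 6, with Sox4, Sox5, Sox6 and Sox11 higher and Sox3 and Sox15 lower, beside 41.9%. At days 4 and 10 the members' share lay near that of all genes or below it.

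These 5 comparisons share the 3 growth arrays and are not independent of each other. The median difference of the 8 genes was 0.10 on the log2 scale at day 4 and 1.14 at day 12, against 0.00 at both days over all genes tested. The F test over the 5 days called 6 of the 8 genes, Sox3, Sox4, Sox5, Sox6, Sox11 and Sox15, beside 60.9% of all genes. In cultures of mixed cells, fewer cells of a type and less RNA per cell cannot be told apart, which holds for every change below.

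**Figure D2:**
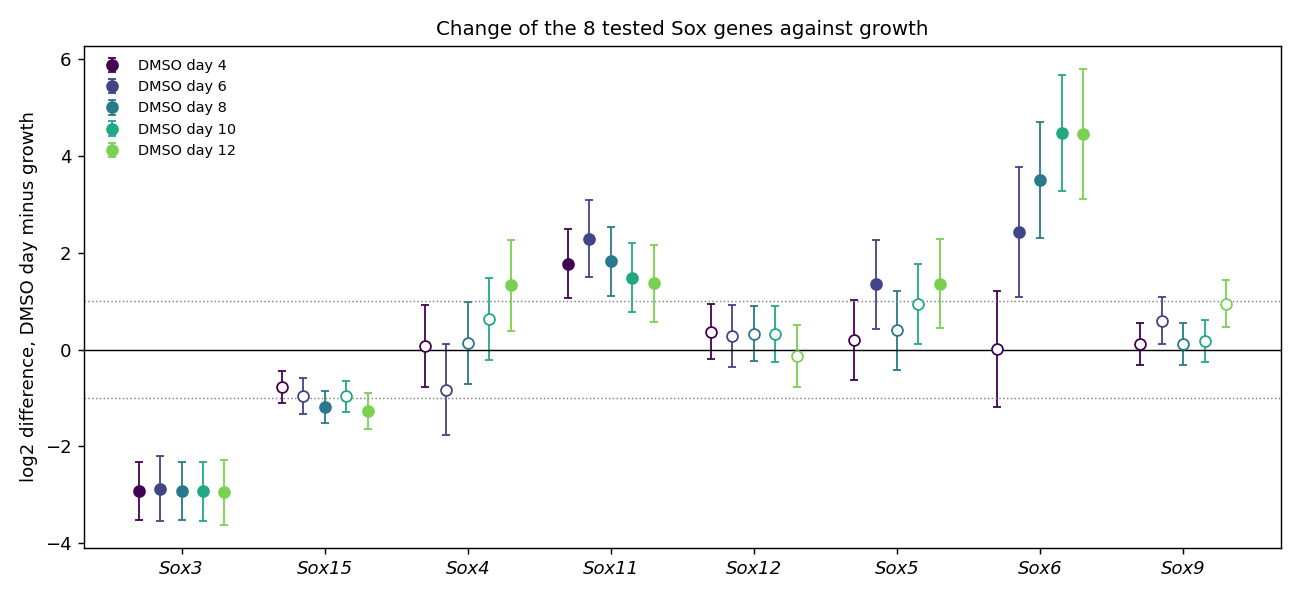
Log2 difference of each DMSO day minus growth for the 8 tested Sox genes, with 95% intervals from the limma fit. Filled circles are called changes, open circles are not called, and dotted lines mark a difference of 1 log2. Sox3 stands near -2.9 at every day, Sox11 is highest at day 6 and Sox6 is near 0 at day 4 and 4.47 at day 10.

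Sox3, a close relative of Sox2 and a regulator of neural progenitors, had the largest fall of the 8 tested genes. Its log2 intensity on the 13 DMSO arrays was 3.45 at the lowest, 3.67 at the median and 3.73 at the highest, against 5.62, 6.97 and 7.01 on the growth arrays. Every DMSO array lay under every growth array and under the dim limit. The level was at least 5.78-fold lower at each of the 5 days, with limma adjusted p from 1.12e-06 at day 10 to 8.52e-06 at day 6. No order among the 5 DMSO groups can be read, since all of their arrays were dim. Growth replicate A was the lowest of its group by 1 log2 or more, and Sox3 remained called at every day without it. The second Sox3 probe set was dim on all arrays. The gene lies at chrX:60891366-60893430 (GRCm38.p6).

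Sox15, which is expressed in mouse embryonic stem cells and binds DNA beside Pou5f1 there, was lower on every DMSO array than on any growth array. Its sole probe set read 4.50, 4.72 and 4.47 at day 4, 4.49 and 4.26 at day 6, and 4.28, 3.89 and 4.28 at day 8 (replicates A, B and C), against 5.43, 5.27 and 5.30 in growth. It read 4.47, 4.35 and 4.28 at day 10 and 3.93 and 4.21 at day 12. The differences from growth were -0.77 at day 4, -0.96 at day 6 and -0.97 at day 10 on the log2 scale, with limma adjusted p of 0.000901, 0.000478 and 9.2e-05, short of the required 1 log2. Without day 10 replicate A the day 10 difference was -1.02 (adjusted p = 0.000258) and without day 6 replicate B the day 6 difference was -1.08 (adjusted p = 0.00283), both called. At day 8 Sox15 fell by 1.19 ± 0.15 (SE; 2.28-fold lower, limma adjusted p = 2.27e-05) and at day 12 by 1.26 ± 0.17 (2.40-fold lower, limma adjusted p = 2.44e-05). No pair of successive days was called, with differences from -0.30 to 0.22. The upstream window printed for Sox15 ends where the annotated gene begins, at base 69655037 of chromosome 11.

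The SoxB1 factor left out of the set, Sox2, averaged 8.30 ± 0.56 at day 4 (SD, n = 3) and 8.38 ± 0.27 at day 12 (n = 2), against 10.87 ± 0.41 in growth (n = 3), and was called lower at all 5 days. Of 8 tested pluripotency genes, 7 were called lower and 1 higher at both day 4 and day 12, beside 13.6% and 19.3% of all genes called lower. The median of the list was -3.84 at day 4 and -4.74 at day 12. Pou5f1, the POU factor that binds DNA with Sox2, averaged 9.21 at day 12, against 14.30 in growth. Utf1, a chromatin factor of pluripotent cells, averaged 4.86 at day 12, against 12.18 in growth. Of 6 tested neural genes, 4 were called lower at each of these days and 1, Ncam1, a cell adhesion molecule that is also found in heart muscle, was called higher at day 12. Otx2, a forebrain and epiblast factor, averaged 6.62 at day 4 and 5.45 at day 12, against 10.68 in growth.

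Among the SoxC genes, Sox11 was called higher at every day and Sox4 at day 12, and Sox12 was called at none. Sox11, an activator expressed in neural and mesenchymal progenitors, read 7.99, 8.47 and 8.11 in growth, then 9.82, 10.27 and 9.79 at day 4, and 10.24 and 10.73 at day 6. It read 10.14, 9.95 and 9.96 at day 8, 8.73, 10.19 and 10.11 at day 10, and 9.20 and 9.92 at day 12. All 13 DMSO arrays lay above all 3 growth arrays. By their means the groups ran, from low to high, growth, days 12, 10, 4, 8 and 6, and no pair of successive days was called.

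Sox11 rose by 1.77 ± 0.33 on the log2 scale at day 4 (SE; 3.42-fold higher, limma adjusted p = 0.000615) and by 2.29 ± 0.37 at day 6 (4.91-fold higher, limma adjusted p = 0.000238). The difference was 1.83 at day 8, 1.49 at day 10 and 1.37 at day 12, where the limma adjusted p was 0.00571. Without day 12 replicate C the day 12 difference was 1.01 and was not called (adjusted p = 0.0872). Without day 10 replicate A, the array with the widest Actb difference of 1.33, the day 10 difference was 1.96 in place of 1.49.

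The group means of all 6 probe sets of Sox11 lay higher than growth at each of the 5 days, by 1.72 to 2.46 at day 4 and by 1.72 to 2.88 at day 6. The means of all 6 lay lower at day 12 than at day 6, by differences of -2.35 to -0.55. On the probe set that stands for the gene, that difference was -0.93 ± 0.41 (limma adjusted p = 0.0926), which was not called. Day 10 replicate A split the probe sets. It read 4.00 on 1431225_at, against 9.18 and 8.36 on the other day 10 arrays. On that probe set this array and day 12 replicate A, at 5.41, lay below all growth arrays. Day 10 replicate A was also the lowest of the 3 on 1436790_a_at and 1453125_at. On 1453002_at, 1429051_s_at and 1429372_at it was the highest of the 3, with 9.37 against 9.16 and 9.02 on the first of these. The part of RNA integrity in this split was not tested.

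**Figure D3:**
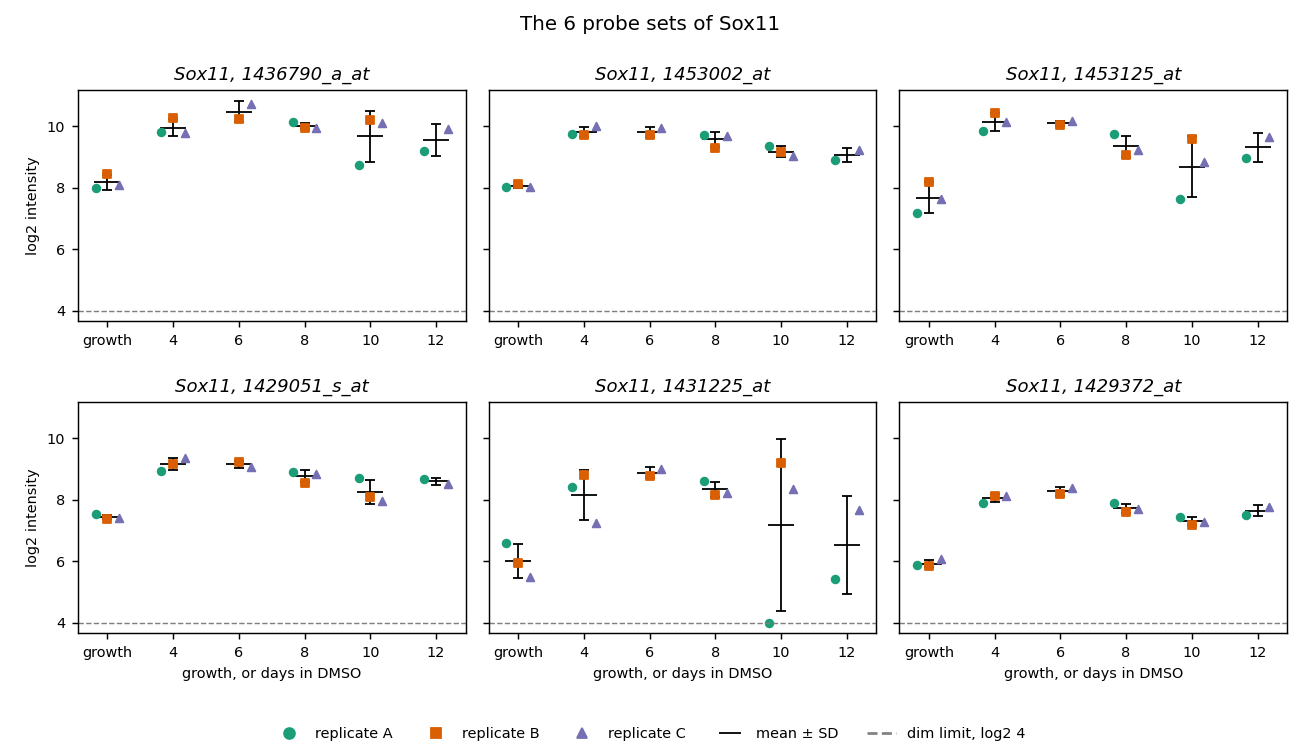
Log2 intensity of the 6 probe sets of Sox11 on 16 arrays, in growth and after 4 to 12 days in DMSO, with points by replicate letter and bars for means ± SD. The means of all 6 lie above growth at every day. Day 10 replicate A is far below its group on 1431225_at, where it reads 4.00, and the top of its group on 1453002_at, 1429051_s_at and 1429372_at.

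Sox4, which is required for the outflow tract and the semilunar valves in mice, was lowest at day 6 and highest at day 12. It read 10.69, 11.21 and 11.36 in growth, 10.37, 11.66 and 11.48 at day 4, and 10.30 and 10.22 at day 6. It then read 10.51, 11.43 and 11.73 at day 8, 11.29, 12.21 and 11.68 at day 10, and 11.95 and 12.88 at day 12. Both day 12 arrays lay above all growth arrays, and both day 6 arrays lay below them. Replicate A was the lowest array at days 4, 8, 10 and 12 and in growth, and at days 4 and 8 it lay nearer to the day 6 arrays than to the rest of its group.

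At day 12 against growth Sox4 rose by 1.33 ± 0.44 on the log2 scale (SE; 2.51-fold higher, limma adjusted p = 0.0176). The call was lost without growth replicate A (1.13, adjusted p = 0.0611), without day 12 replicate C (0.87, adjusted p = 0.202) and with the mean of all probe sets above the limit (1.00, adjusted p = 0.106). At day 6, which has no replicate A, the difference from growth was -0.83 ± 0.44 and was not called (limma adjusted p = 0.147). With the replicate letter as a block, 1 of the alternative settings, it was -1.13 and called (limma adjusted p = 0.00137). A contrast of day 12 with day 6 was added after the values were seen. By it Sox4 was 2.16 ± 0.48 higher at day 12 than at day 6 (4.46-fold, limma adjusted p = 0.00369). It was called in 27 of 27 alternative settings, which reuse the same arrays. The contrast joins the lowest and the highest group mean of Sox4, and its p takes no account of that choice.

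In that contrast 2 of the 8 Sox genes, Sox4 and Sox6, were called higher, beside 23% of all genes called in both directions together. The 5 probe sets of Sox4 above the limit all lay lower at day 6 than in growth, by -1.62 to -0.83, and all 5 lay higher at day 12 than at day 6, by 1.76 to 2.21. On 1449370_at day 4 replicate A read 3.59, against 6.09 and 6.34 on the other day 4 arrays. Day 8 replicate A read 3.61 there, against 5.03 and 5.04 on the other day 8 arrays.

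Sox12, which overlaps with Sox4 and Sox11 in its expression and is a weaker activator, stayed between 7.82 and 9.00 on the 16 arrays. It read 8.46, 8.25 and 9.00 at day 4 and 7.88 and 8.26 at day 12, against 8.25, 7.82 and 8.52 in growth. The groups overlapped. The difference from growth was 0.37 at day 4, with a 95% interval of -0.20 to 0.95, and -0.13 at day 12, with an interval of -0.77 to 0.52. It was called in no comparison by limma and had no unadjusted p under 0.05. A dimmer Sox12 probe set, 1439754_at, read 5.16, 4.90 and 5.26 at day 4, against 3.74, 3.54 and 3.80 in growth, where all of its arrays lay under the limit of 4. It lay above all growth arrays on 12 of the 13 DMSO arrays. At day 12 its difference from growth was 1.20, so the probe sets of Sox12 differed in direction there.

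Genes of cushion mesenchyme, the tissue of the heart valves in which Sox4 and Sox9 act, were called higher in 10 of 14 tested genes at day 4 and in 11 of 14 at day 12. Of all genes, 13.3% were called higher at day 4 and 22.5% at day 12. The median of the list was 3.25 at day 4 and 3.75 at day 12. Most genes of the list averaged under 4 in growth and passed the filter mainly through DMSO arrays. These counts therefore follow in part from the filter and cannot be weighed against the share of all genes. Snai1, which represses E-cadherin, averaged 10.39 at day 4, against 2.92 in growth. At day 12 it averaged 3.31 and was not called, so the genes called at day 4 and at day 12 were not all the same. Tbx20, a T-box factor of heart and cushions, averaged 11.13 at day 12, against 2.60 in growth. Cdh11, a mesenchymal cadherin, averaged 10.86 at day 4 and 10.83 at day 12, against 2.47 in growth.

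The SoxD gene Sox6 had the largest log2 differences of the 8 tested genes. Sox6 represses embryonic globins and slow-fibre genes in mouse erythroid and muscle cells. All growth and day 4 arrays were dim, at 2.67 to 2.90. It read 5.46 and 4.89 at day 6, 4.69, 6.08 and 7.97 at day 8, 7.31, 7.38 and 6.96 at day 10, and 6.76 and 7.65 at day 12. All 10 arrays from day 6 on lay above the limit of 4 and above every growth and day 4 array. The 3 day 8 arrays spanned the range from day 6 to above day 12, with replicate A below both day 6 arrays.

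Sox6 was at least 2.26-fold higher at day 6 than in growth (log2 difference 2.43 ± 0.63, limma adjusted p = 0.00658). It was at least 4.75-fold higher at day 8 (limma adjusted p = 0.000152), 9.31-fold at day 10 (1.29e-05) and 9.21-fold at day 12 (3.6e-05). The day 6 call was lost without day 6 replicate B (2.15, adjusted p = 0.0643) and with values under 4 set to 4 (1.17, adjusted p = 0.156). Without day 8 replicate A the day 8 mean was 7.03 ± 1.33 (SD, n = 2) in place of 6.25 ± 1.64 (n = 3), and the day 8 difference from growth was 4.28 in place of 3.50.

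Between successive days, Sox6 at day 6 against day 4 was the sole call among the 8 tested Sox genes, 1 of 8 beside 6.13% of all genes (2.42 ± 0.63, limma adjusted p = 0.0293). That call was lost in 10 of 27 alternative settings, 5 of which left out 1 array, any of those of day 4 or day 6. Sox5 was called there too without day 10 replicate A (1.14, adjusted p = 0.0269) and with array weights (1.15, adjusted p = 0.0286). No Sox gene was called at day 8 against day 6 (0 of 8 by limma, beside 0.0185% of all genes), where 2, Sox4 and Sox5, had an unadjusted p under 0.05. Without day 8 replicate A, 5.67% of all genes were called in that comparison and so was Sox6 (1.85, adjusted p = 0.0262). At day 10 against day 8 none of the 8 was called by limma, beside 7.81% of all genes, and 0 had an unadjusted p under 0.05. Sox6 was called there without day 8 replicate C (1.83, adjusted p = 0.00469), and Sox5 without day 10 replicate A (1.09, adjusted p = 0.032). At day 12 against day 10 none was called by limma, beside 3.06% of all genes, and 1, Sox9, had an unadjusted p under 0.05. Without day 12 replicate C, 1 of the day 12 arrays with the higher 18S reading, Sox9 was called there (1.14, adjusted p = 0.0349). Day 12 against day 6, the contrast added later, gave 2.03 ± 0.69 for Sox6 (4.08-fold higher, limma adjusted p = 0.0339). It was lost without day 6 replicate B, day 6 replicate C or day 12 replicate C, with differences of 2.31, 1.75 and 1.58, and with no filter on dim probe sets (adjusted p = 0.0841).

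All growth and day 4 arrays were dim on all 4 probe sets of Sox6, so that the later values give only bounds on a rise. The folds above are those of 1447655_x_at, which stands for the gene. At day 10 it averaged 7.22, against 6.67 on 1434918_at, 6.38 on 1427677_a_at and 4.55 on 1426018_a_at. The other probe sets therefore give lower bounds at day 10. The probe sets did not cross the limit of 4 together. At day 6, 1434918_at read 3.14 and 4.57 and 1426018_a_at read 2.98 and 3.28, while 1427677_a_at read 4.86 and 4.12. At day 8 replicate A was below replicate C on all 4, with 3.62 against 7.05 on 1434918_at.

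**Figure D4:**
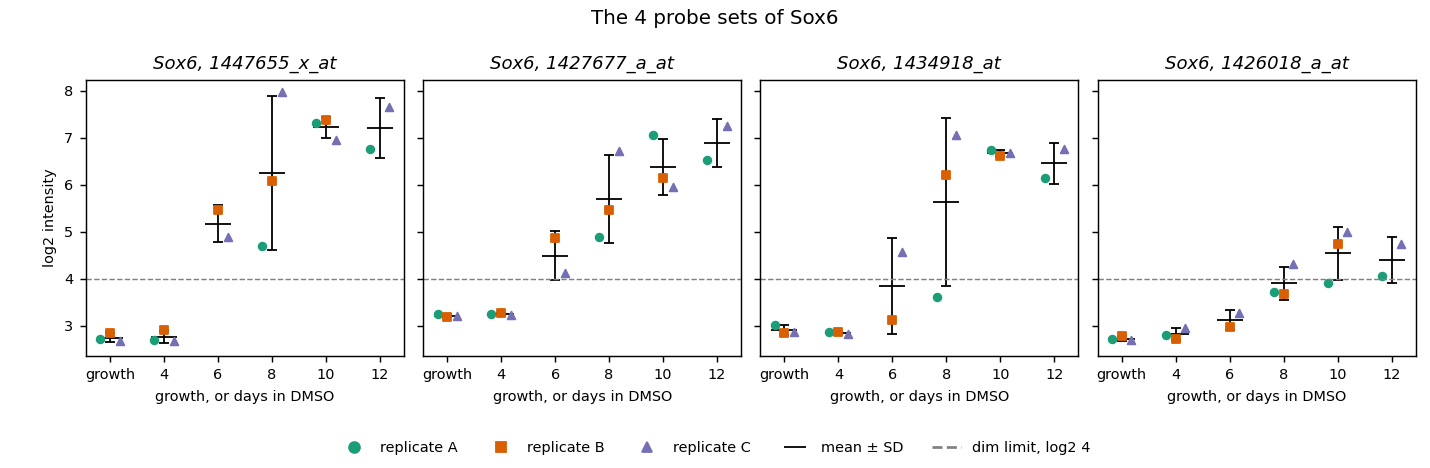
Log2 intensity of the 4 probe sets of Sox6 on 16 arrays, in growth and after 4 to 12 days in DMSO, with points by replicate letter, bars for means ± SD and a dashed line at the log2 value of 4. All growth and day 4 points lie under the line on all 4. On 1426018_a_at both day 6 arrays are still under it.

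Of 11 tested genes of slow muscle and embryonic globin, the classes that Sox6 represses in other mouse tissues, 2 were called higher and 1 lower at day 4, and 7 higher and 1 lower at day 12, with a median of 3.48 at day 12. At day 4, 13.3% of all genes were called higher and 13.6% lower, and at day 12, 22.5% higher and 19.3% lower. Tnni1, the slow skeletal troponin I that embryonic heart also uses, averaged 13.21 at day 12, against 2.64 in growth. Tnnt1, the slow skeletal troponin T, averaged 3.71 at day 4 and 6.83 at day 12, against 9.61 in growth, and was called lower at both days. Hba-x, an embryonic alpha-like globin, averaged 11.75 at day 10 and 6.90 at day 12, against 2.00 in growth. The other embryonic globins of the list were called higher at day 10 and were not called at day 12. Several genes of the list are also heart muscle genes, and all 15 tested genes of the cardiac muscle list were called higher at day 12, with a median of 7.14. Genes of the cardiac list that were dim up to day 8 passed the filter only through arrays of days 10 and 12. That count therefore follows in part from the filter. The same holds for the day 12 count of the slow muscle and globin list, in which Tnni1 and Hba-x averaged under 4 in growth.

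Sox5, the SoxD factor closest to Sox6, was called higher at days 6 and 12. It read 3.84, 3.22 and 3.55 in growth, 3.85, 3.73 and 3.65 at day 4, and 4.52 and 5.25 at day 6. It read 4.20, 4.22 and 3.37 at day 8, 3.40, 4.93 and 5.10 at day 10, and 5.01 and 4.78 at day 12. All growth and day 4 arrays were dim, and the day 8 and day 10 groups each held dim and brighter arrays. Day 10 replicate A, which had the widest Actb difference, was dim beside 4.93 and 5.10.

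Sox5 was at least 1.85-fold higher at day 6 than in growth (log2 difference 1.35 ± 0.43, limma adjusted p = 0.0209) and at least 1.86-fold higher at day 12 (1.36 ± 0.43, limma adjusted p = 0.0137). The day 6 call was lost without growth replicate B (1.19, adjusted p = 0.0647) or day 6 replicate C (0.98, adjusted p = 0.198), and with no filter on dim probe sets (adjusted p = 0.0536). The day 12 call was lost without day 12 replicate A (1.24, adjusted p = 0.0805). With values under 4 set to 4 both calls were lost, since the differences were then 0.89 and 0.90. At day 10 the difference was 0.94, under 1 log2. It was 1.48 and called without day 10 replicate A (adjusted p = 0.000721), and 1.09 and called without growth replicate A (adjusted p = 0.0482). Of the 7 probe sets of Sox5, 5 were dim. Beside the one that stands for the gene, 1455535_at passed the limit. It read 3.17 and 4.79 at day 6 and 4.31 and 4.94 at day 12, against 2.99, 2.94 and 2.86 in growth. Day 6 replicate B was thus under 4 on it.

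Sox9, the SoxE factor that directs cartilage and acts in valve mesenchyme, lay between 3.93 and 5.51 on the 16 arrays. It read 4.72 and 4.86 at day 6 and 5.51 and 4.77 at day 12, against 4.62, 4.03 and 3.93 in growth. The day 6 and day 12 arrays all lay above the growth arrays, and arrays of days 4, 8 and 10 lay among them. The difference at day 12 was 0.95 ± 0.23 (limma adjusted p = 0.00246), just short of 1 log2 and therefore not called. Without day 12 replicate C it was 1.32 (adjusted p = 0.000728) and without growth replicate A 1.16 (adjusted p = 0.000417), both called. A second probe set, 1451538_at, read 4.55 and 4.72 at day 12, against 3.45, 3.03 and 3.31 in growth.

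Of 10 tested cartilage genes, which Sox9 activates with Sox5 and Sox6, 2 were called higher and 2 lower at day 4, and 3 higher and 2 lower at day 12, with medians of 0.21 and 0.38. Of all genes, 27% were called in either direction at day 4 and 41.9% at day 12. Col2a1, the main cartilage collagen and a direct target of Sox9, averaged 3.44 at day 4 and 3.08 at day 12, against 4.91 in growth, and was called lower at both days. Fgfr3, a receptor of growth plate cartilage, averaged 7.00 at day 12, against 3.16 in growth. Col9a1, a cartilage collagen whose chain is also made elsewhere, averaged 8.13 at day 4, against 3.05 in growth.

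The SoxF genes stayed at or near the dim level. The brighter probe set of Sox7, a factor of primitive endoderm and early endothelium, read 3.17 to 3.49 on all arrays. Its other probe set, 1416564_at, read 3.04 and 4.37 at day 12, against 2.63, 2.46 and 2.63 in growth, and exceeded 4 on day 12 replicate C alone. Sox17, a factor of definitive endoderm and endothelium, read 2.55 to 2.91 on the probe set that stands for it. Its other probe set, 1429177_x_at, read 3.32 and 4.07 at day 12 and 2.14, 3.53 and 2.92 at day 8, against 2.15, 2.10 and 2.13 in growth. Neither gene was tested, and a value under the limit gives only a bound on its level.

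Of 12 tested endoderm genes, 6 were called higher at day 4 and 11 at day 12, with medians of 1.04 and 4.49. Of all genes, 13.3% were called higher at day 4 and 22.5% at day 12. Afp, alpha-fetoprotein of yolk sac and fetal liver, averaged 9.12 at day 12, against 2.77 in growth, and Ttr, the transport protein transthyretin, averaged 9.74, against 2.88. Gata6 and Gata4, factors of both endoderm and heart, averaged 11.22 and 9.56 at day 12, against 3.86 and 3.33 in growth. The growth arrays were dim for Afp, Ttr and Gata4. Such genes passed the filter through DMSO arrays, so the counts of this list follow in part from the filter.

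Across the 16 arrays Sox3 and Sox15 had a Pearson correlation of 0.85, Sox3 and Sox11 of -0.80, Sox4 and Sox11 of -0.00 and Sox5 and Sox6 of 0.46. The arrays share their groups, and the values of Sox3 fall into growth arrays and all others. The genes most like Sox6 in their pattern over the 16 arrays were Hcfc2 (r = 0.984), Zc3h12c (0.979) and Dlk1 (0.978). Dlk1, an imprinted gene that encodes a membrane protein, averaged 13.59 at day 12, against 2.74 in growth. Most like Sox11 were Ttc14 (0.963), Srrm2 (0.963) and Lpp (0.947), and most like Sox4 were Tgfb1i1 (0.902), Cotl1 (0.898) and Lztfl1 (0.874). Sox15 ran most closely with Pnp (0.933), Dnmt3a (0.932) and Rtn4rl1 (0.930). Dnmt3a, a de novo DNA methyltransferase, averaged 8.25 at day 12, against 11.03 in growth. Sox12 was most like Mark4 (0.845), Ncstn (0.841) and Srebf2 (0.807), Sox5 most like Cd55 (0.871), D430020J02Rik (0.830) and Abhd12 (0.784), and Sox9 most like Cox4i2 (0.880), Bgn (0.816) and Smox (0.806). Sox3 was most like Myd88, Nhej1 and Dab1, each with r of 0.996, as are other genes that were high in growth and dim on every DMSO array.

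Among the other 10 Sox family genes on the array, 3 passed the filter on dim values: Sox2, Sox13 and Sry. Sox13, the remaining SoxD gene, averaged 5.02 ± 0.41 at day 10 (SD, n = 3) and 4.37 ± 0.10 at day 12 (n = 2), against 6.08 ± 0.41 in growth (n = 3). It was called lower at day 10 (-1.06 ± 0.29, limma adjusted p = 0.00592) and at day 12 (-1.71 ± 0.32, limma adjusted p = 0.000428). Before that it averaged 6.57 at day 6 and 6.85 at day 8, not called against growth. Sox13 was called lower at day 10 than at day 8 (-1.83 ± 0.29, limma adjusted p = 0.00116).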

How the data were processed

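Total RNA of each culture was hybridised to 1 Affymetrix array, after biotin labelling per the labels' protocols. The deposited values were made by the authors with GCRMA, per the submitters' processing notes. GCRMA corrects background by probe sequence, normalises arrays by quantiles and summarises the probes of a probe set. Its version and the scale are not given in the sources used here. The deposited values ran from 0.863 to 15.862 and were read as log2 intensities. The number of arrays limits the precision.

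Probe sets were named from the platform annotation: 34945 had 1 symbol, 932 had several and were not used. The Entrez identifiers of all 10 members matched RefSeq. Probe sets above log2 4 on fewer than 2 arrays were left out, and the brightest probe set on average represented a gene. Group means were fitted for 10802 genes over the 16 arrays by lmFit and eBayes of limma 3.58.1 (R 4.3.3), and the fit was first tested on simulated data. There were 10 residual degrees of freedom, to which eBayes added 3.53. A call required a Benjamini-Hochberg adjusted p under 0.05 and 1 log2, and the F test required a range of group means of 1 log2. Intervals are 95%. For a group with every array under 4, the fold is a bound, the brighter mean over 4.

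The contrasts were 9 in the plan and 1 added after values were seen, day 12 against day 6. The members and the 11 gene lists were chosen with earlier results of these data known, so a list is described by counts and medians alone. A listed gene that was dim in most groups passed the filter through the groups where it was high. This can raise the count of a list called there. All members are named, with up to 4 genes of a list, taken from its 4 largest called changes at day 4 and at day 12, and the 3 genes most correlated with each member. Replicate letters were not taken as pairs. Deviations from group means of arrays with the same letter correlated at -0.21 to 0.32 (35 pairs, median 0.06). For arrays of other letters in other groups the range was -0.34 to 0.34 (71 pairs, median -0.03). Still, 12 of 16 arrays correlated best, among arrays of other groups, with 1 of their own letter. Day 6 has no replicate A and day 12 no replicate B, so letter and day are not fully separate. The letter was fitted as a block in 1 of the alternative settings. Alternatives were 13 processing settings and the omission of each of the 16 arrays in turn.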

Additional observations from a re-analysis of the deposited data

How the results depend on the processing

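No called change of a Sox gene turned its direction in any setting. Of 590 pairs of 22 called changes and a setting, 564 kept the call and 26 lost it, and 23 of 1540 pairs of an uncalled change and a setting gained one. Counts of called Sox genes stayed within 1.5 times the reported count in 293 of 318 settings. At day 6 against growth the count of 4 was 2 with values under 4 set to 4. At day 10 the count of 3 was 5 with no least change, and it ran from 3 to 5 over the omission of single arrays, with 5 without replicate A of day 10. At day 6 against day 4 the count of 1 was 0 with no filter on dim probe sets, values under 4 set to 4, the mean of probe sets, no probe sets ending in _x_at or _s_at, or an adjusted p under 0.01. It was 2 with array weights and 0 to 2 over the omission of single arrays. At day 8 against day 6 the count of 0 was 2 with array weights and 0 to 1 over single arrays. The counts of 0 at day 10 against day 8 and at day 12 against day 10 also ran from 0 to 1. The F test ran from 4 to 7 over single arrays. Sox15 passed 1 log2 at days 6 and 10 when quantiles were normalised again (-1.08 and -1.12). The causes were not tested. With the replicate letter as a block, Sox4 was called lower at day 6 than in growth (-1.13, limma adjusted p = 0.00137) and than at day 4 (-1.21, adjusted p = 0.00447), and Sox6 at day 6 against day 4 was lost (2.21, adjusted p = 0.0502). The block called 14 genes in place of 2 at day 8 against day 6. By deviations from group means, 12 of 16 arrays correlated best, among arrays of other groups, with 1 of their own letter. Groups of 2 and 3 arrays and values near the dim limit bound what can be read of Sox5, Sox7, Sox9 and Sox17.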

Other observations

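All 9 tested early mesoderm genes were called higher at day 4, beside 13.3% of all genes, with a median of 6.00 on the log2 scale. All but Eomes averaged under 4 in growth and at days 8, 10 and 12. Such genes passed the filter on dim values mainly through arrays of days 4 and 6. The count at day 4 follows in large part from that filter and cannot be weighed against the share of all genes. At day 12 the median of the 9 genes was -0.09 and 1 of them, Eomes, was called lower. Mixl1, a primitive streak factor, averaged 11.99 at day 4, against 2.39 in growth, and Mesp1, a factor of cardiac mesoderm, averaged 11.89, against 2.82. Of the Sox genes, Sox11 was called higher and Sox3 lower at that day.

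Of 10 tested endothelial genes, 3 were called higher and 1 lower at day 4, and 5 higher and 2 lower at day 12. Of all genes, 13.3% were called higher and 13.6% lower at day 4, and 22.5% higher and 19.3% lower at day 12. Kdr, the receptor of VEGF on endothelium and cardiac progenitors, averaged 8.88 at day 4 and 7.22 at day 12, against 2.32 in growth. Tek, the receptor of angiopoietins, averaged 7.89 at day 12, against 2.97 in growth. Genes such as Kdr and Tek passed the filter through DMSO arrays, so the counts called higher follow in part from that filter. Flt1, another receptor of VEGF, averaged 5.41 at day 4 and 5.31 at day 12, against 8.44 in growth. Etv2, a factor of early endothelial and blood progenitors, averaged 7.64 at day 4 and 1.91 at day 12, against 4.84 in growth. Of 7 tested neural crest genes, 1 was called higher and 2 lower at day 4, and 3 higher and 2 lower at day 12, beside the same shares of all genes. Foxd3, a factor of neural crest and of pluripotent cells, averaged 2.28 at day 4, against 7.37 in growth. Ednrb, an endothelin receptor, averaged 7.64 at day 12, against 2.81 in growth. Mitf, the pigment cell factor, averaged 9.29 at day 12, against 4.78 in growth, and Ets1, an ETS factor, averaged 9.63, against 5.30.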
